A study of Homo sapiens with 2 samples.

Results

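The mitochondrial ribosomal protein (MRP) genes were taken as every row whose symbol was MRPL or MRPS followed by a number and, in some, a letter from A to C. This symbol rule used no measured value and took 77 of the 55797 listed genes, of which 48 were MRPL rows and 29 were MRPS rows. Both libraries came from H1, a single established human embryonic stem cell line, differentiated to Stage 6, a mixed culture that holds insulin-expressing cells. In the live sample the cells were left unfixed and RNA was taken with the RNeasy kit. In the processed sample the cells were fixed in 4% paraformaldehyde, permeabilized, stained with antibody and passed through the sorter with every cell kept, and RNA was taken with a modified RecoverAll kit. The question was whether this handling altered the representation of transcripts.

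Each condition had 1 library, so no difference below has a replicate check and none was tested. FPKM is a fragment count scaled by transcript length and by the size of the library, and it summed to 510713 in live and 499398 in processed cells. The lowest FPKM steps, which mark 1 fragment, were 1.07 times as high in the processed library, which was therefore the slightly shallower of the pair. Insulin (INS), the marker of the labelled cell type, had an FPKM of 98.3 in live and 121 in processed cells. In bulk RNA, fewer cells of a type and less RNA per cell cannot be told apart. A ratio is given as log2((processed FPKM + 1) / (live FPKM + 1)), so that a value above 0 means a higher level in processed cells. Each FPKM comes with the lower and upper bounds listed for it, which describe precision within 1 library and whose level is not stated.

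The mitochondrial ribosome translates the few mRNAs made inside the organelle, which encode subunits of the respiratory chain and of ATP synthase. Its ribosomal RNAs come from mitochondrial DNA, whereas all of its proteins are encoded in the nucleus, made in the cytosol and imported. The large subunit, named L, joins amino acids and passes the growing chain through an exit tunnel to the inner membrane. The small subunit, named S, reads the mRNA. Insulin-secreting cells depend on mitochondrial ATP to couple glucose to secretion, and cells that lack a working mitochondrial ribosome lose oxidative phosphorylation.

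Many MRP genes start close to another gene that is read in the opposite direction. An annotated start of a neighbour lay within 1000 bases of the start of 25 of 76 MRP genes (32.9%), compared with 1326 of 9816 protein-coding genes (13.5%) whose mean FPKM lay between 4 and 100. The 76 include MRPL45 and MRPS21, which had no start in the annotation used and so could not be given a neighbour. The stretches below are the longest parts between paired starts that no annotated exon covers, printed 5′ to 3′ in the direction of the MRP gene, from the GRCh37 genome with GENCODE 44 start sites. They are shown because each separates a pair of genes whose levels are compared further on, and they were picked after the values were seen. Capitals mark either of 2 motifs found by their letters on either strand, GCGCANGCG of NRF-1 and CCGGAAG of ETS factors, both known from promoters of genes for mitochondrial proteins.
MRPL30 and MITD1, chr2:99797522-99797614, plus strand: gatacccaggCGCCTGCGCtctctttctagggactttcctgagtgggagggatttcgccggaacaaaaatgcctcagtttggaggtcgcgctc
MRPL47 and NDUFB5, chr3:179322438-179322477, minus strand: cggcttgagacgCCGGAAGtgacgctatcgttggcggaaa
MRPL37 and CYB5RL, chr1:54665747-54665839, plus strand: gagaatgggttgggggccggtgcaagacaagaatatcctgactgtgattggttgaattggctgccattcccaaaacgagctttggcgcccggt
MRPL46 and MRPS11, chr15:89010622-89010683, minus strand: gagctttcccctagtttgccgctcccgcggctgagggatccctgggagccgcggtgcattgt
The first stretch holds the NRF-1 letters and the next one the ETS letters, and the last 2 hold neither. This covers the printed parts only. In the longer sequence before each annotated start, searched further on, MRPL37 held the NRF-1 letters and MRPL30 the ETS letters as well. MRPL46 and MRPS11 held neither there.

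All MRP genes but 1 entry were expressed in both libraries, and at similar levels. Their median FPKM stood at 24.3 (live) and 22.7 (processed). In live cells 70 MRP rows had an FPKM of 10 or more and in processed cells 68 had, and 68 rows lay between 10 and 60 in live cells. The genes together took 0.410% of all FPKM (a sum of 2092) in live cells and 0.403% (a sum of 2012) in processed cells. As a rough guide to depth, the median MRP gene corresponded to about 2751 fragments in live and 2479 in processed cells, from its FPKM, the annotated length and the fragment step. The 77 rows lie on 21 chromosomes, with 8 rows each on chromosomes 1 and 2 and 0 on X or Y.

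**Figure D1:**
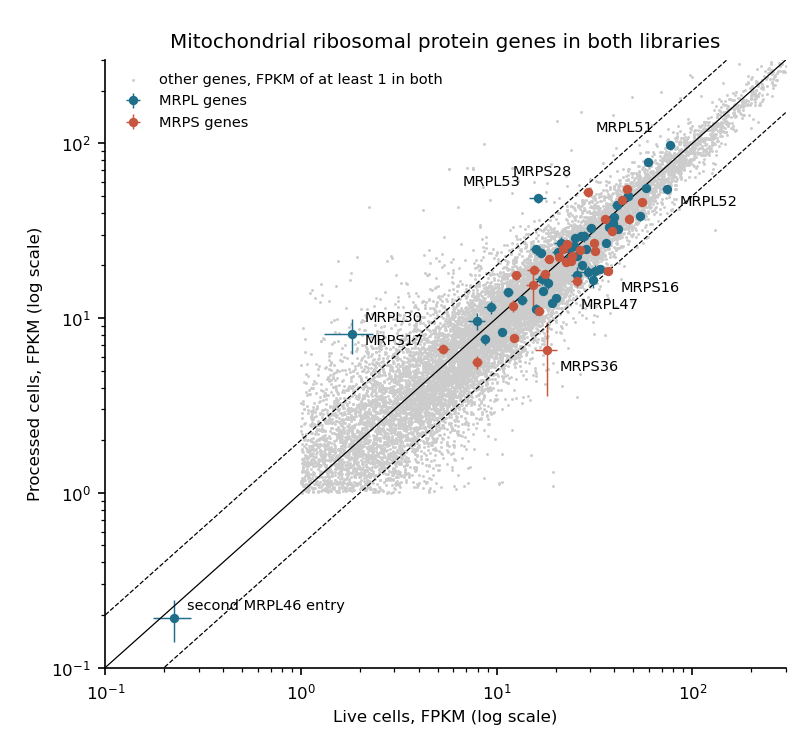
FPKM of each gene in live cells (horizontal, log scale) and processed cells (vertical, log scale). Blue points are MRPL genes, orange points are MRPS genes, bars are the listed FPKM bounds, grey points are other genes at FPKM 1 or above in both libraries, the solid line marks equal values and dashed lines a 2-fold ratio. MRPL30 and MRPL53 lie above the upper dashed line and MRPS36 lies below the lower one, and MRPL51 is the highest MRP gene on either axis.

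The top of the family was partly shared between the libraries. MRPL51, a large subunit protein with no bacterial counterpart, was the highest, with an FPKM of 77.2 (bounds 74.5 to 79.9) in live and 98.4 (95.0 to 102) in processed cells. MRPL52, also particular to mitochondria, followed at 73.9 (69.7 to 78.1) in live cells and stood at 54.5 (51.1 to 57.9) in processed cells. MRPL20, which resembles bacterial L20, held rank 3 in live and rank 2 in processed cells, at 59.6 (57.4 to 61.8) and 78.6 (75.8 to 81.3). Next in live cells came MRPL42 at 57.7, MRPS6 at 55.1, MRPL9 at 54.0, MRPS24 at 47.5 and MRPL33 at 46.9. In live cells the bounds of each of these 8 genes overlapped those of a neighbour in the order, MRPL51 with MRPL52, MRPL20 with MRPL42, MRPS6 with MRPL9 and MRPS24 with MRPL33, so that these neighbours were not separated. In processed cells MRPS6, MRPL9 and MRPS24 stood at ranks 11, 13 and 15, and MRPS34, MRPS28 and MRPL3 took ranks 4, 6 and 7. At the other end MRPS17 stood at 5.34, MRPL24 at 7.90, MRPS14 at 7.97, MRPL50 at 8.71, MRPL35 at 9.30 and MRPL40 at 10.7 in live cells, and MRPL30 lay below all of them. Across the 76 rows at FPKM 1 or above, the rank correlation between the libraries was 0.82, and it was 0.89 across 11042 genes with mean FPKM from 4 to 100. Genes within 1 pair of libraries are not replicates, and these correlations are descriptions. The sets differ in their range of levels, on which a rank correlation depends, so 0.82 and 0.89 are not directly comparable.

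A single row was below an FPKM of 1. It was a second entry under the symbol MRPL46 (ENSG00000173867.7, chr15:89002948-89054752 in GRCh37), with an FPKM of 0.225 in live and 0.191 in processed cells, and its bounds overlapped. GENCODE 44 tags this gene as a readthrough transcript of the locus, and it spans the main MRPL46 entry and its neighbour MRPS11. The main entry had an FPKM of 13.4 (12.6 to 14.2) in live and 12.7 (11.9 to 13.5) in processed cells.

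As a family, the MRP genes differed little between the libraries, and about as much as other genes of their level. The median log2 ratio was -0.07 over the 77 rows, with quartiles of -0.36 and 0.17, beside -0.09 over the 17326 genes expressed at FPKM 1 or above in either library and -0.10 over the 11064 genes with mean FPKM from 4 to 100. Of 76 MRP genes, 2 were over 2-fold higher after processing, where 6.57% of all expressed genes and 3.4% of genes at mean FPKM 4 to 100 were. Over 2-fold lower was 1 MRP gene, where the shares were 6.19% and 2.45%. A change of at most 1.5-fold was seen in 81.6% of the 76 MRP genes and in 80.7% of the genes at mean FPKM 4 to 100. The 2 scalings of the libraries differ by a small step: when processed values were divided by the median ratio of all expressed genes, the median of the family was 0.02, so that its sign turned with the scale.

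Bounds that did not overlap between the libraries were common in the family, and also elsewhere. Of the 76 MRP genes, 21 (27.6%) had processed bounds wholly above the live bounds, beside 28.1% of expressed genes and 26.3% of those at mean FPKM 4 to 100. Wholly below were 34 MRP genes (44.7%), beside 43.7% and 45.4%. The other 21 overlapped. These shares were close to the background and are no result about the family. Among MRP genes with separate bounds 38.2% were higher, and 53.6% after median-ratio scaling, and the same step took all expressed genes from 39.1% to 49.4%.

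**Figure D2:**
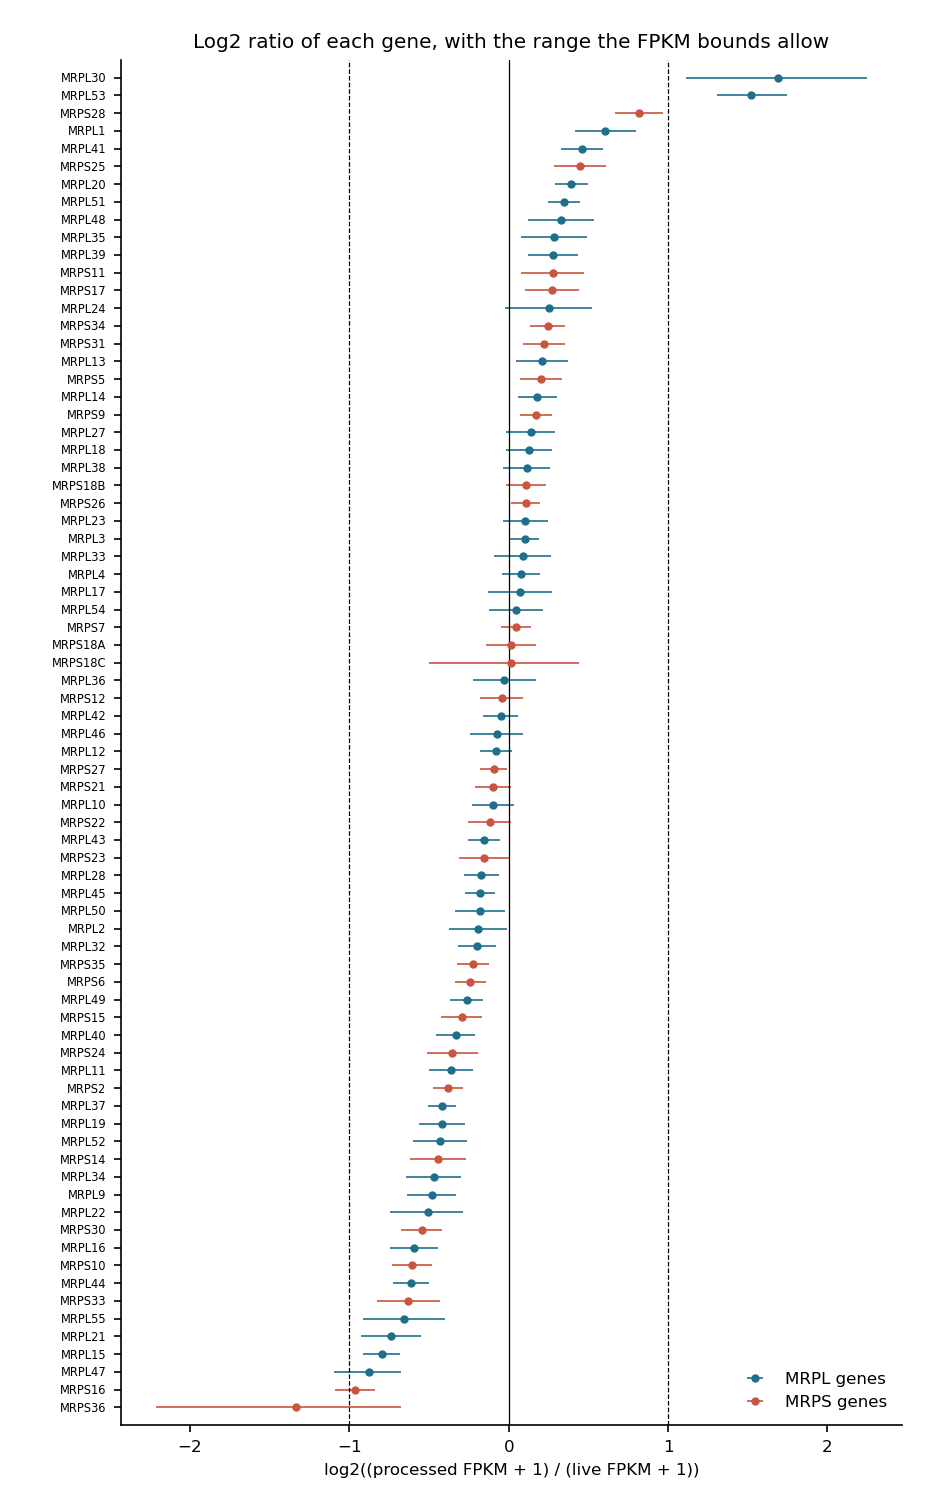
Log2 ratio of processed to live FPKM, each with 1 added, for the 76 MRP genes at FPKM 1 or above, ordered by the ratio. Points are the ratios, bars run between the extreme ratios that the bounds of both libraries allow, and dashed lines mark 2-fold. MRPL30 and MRPL53 lie past the right line at 1.69 and 1.52, and MRPS36 lies past the left line at -1.34.

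MRPL30 had the largest ratio, at 1.69. Its protein resembles bacterial L30 and sits in the large subunit. The gene (ENSG00000185414.14, chr2:99771461-99814089) had an FPKM of 1.82 (1.30 to 2.33) in live cells, the lowest of the 76 MRP genes at FPKM 1 or above, and 8.08 (6.22 to 9.93) in processed cells, a 4.44-fold difference in FPKM. Even in processed cells it ranked only 71 of 77. The listed locus begins far upstream of the GENCODE 44 start, which directly follows the printed stretch, and overlaps 3 other expressed genes. Of these, MITD1, which is read from the other side of the stretch printed above, had an FPKM of 22.7 (21.3 to 24.1) in live and 31.7 (29.4 to 33.9) in processed cells. C2orf15 lies on the strand of MRPL30, and its listed locus spans that of MRPL30 in full. It stood at 27.5 (26.5 to 28.4) in live and 20.8 (20.0 to 21.5) in processed cells, lower where MRPL30 was higher. LIPT1, a lipoate transferase on the same strand, stood at 2.49 (2.19 to 2.78) and 4.26 (3.83 to 4.69), so that the overlapping genes did not share a direction. The values were estimated by maximum likelihood, whether strand was used is not stated, and the part of the overlapping genes in the value of MRPL30 was not tested.

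MRPL53 had a ratio of 1.52 from a much higher level. It encodes a large subunit protein found in mitochondrial ribosomes alone, from the shortest of the annotated MRP transcripts at 496 nt. The gene (ENSG00000204822.6, chr2:74699085-74700449) had an FPKM of 16.2 (14.6 to 17.9) in live and 48.5 (45.7 to 51.4) in processed cells, a 2.99-fold difference. It moved from rank 60 of 77 in live to rank 9 in processed cells, the longest move in the family. CCDC142, which overlaps it on the same strand, had an FPKM of 6.30 and 6.41 and so did not move with it. The listed pseudogene MRPL53P1 was at 0 in both libraries.

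MRPS28 and MRPL1 were the next higher genes, both within 2-fold. MRPS28, a small subunit protein related to bacterial S1, had an FPKM of 29.3 (27.8 to 30.9) in live and 52.3 (49.5 to 55.2) in processed cells, a ratio of 0.82. MRPL1, which forms the mobile arm by which spent tRNA leaves, had 15.9 (14.7 to 17.1) and 24.7 (23.1 to 26.3), a ratio of 0.60. Bounds were separate for both. No expressed gene overlapped MRPL1, whereas TPD52 overlapped MRPS28 and stood at 49.1 in live and 44.5 in processed cells. Smaller positive ratios with separate bounds came from MRPL41 (16.8 in live and 23.5 in processed cells), MRPS25 (12.6 and 17.6), MRPL20, MRPL51, MRPL35 (9.30 and 11.6) and MRPS17 (5.34 and 6.65).

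MRPS36 had the lowest ratio, at -1.34. Despite its name, the protein is absent from structures of the ribosome and is known as a part of the 2-oxoglutarate dehydrogenase complex of the citric acid cycle. The gene (ENSG00000134056.6, chr5:68513587-68525956) had an FPKM of 18 (15.7 to 20.3) in live and 6.53 (3.60 to 9.46) in processed cells, 2.76-fold apart in FPKM. Its processed bounds were wide for its level. No expressed gene overlaps it, but 2 pseudogenes with values share its name. MRPS36P1 was at 8.60 (0 to 16.1) in live and 2.28 (0 to 6.14) in processed cells, and MRPS36P4 was at 0.574 (0 to 2.54) in live cells and at 0 in processed cells. Reads shared among such copies could be divided in more than 1 way, and the values of MRPS36 are uncertain to that extent.

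MRPS16 stood at the 2-fold edge. It resembles bacterial S16, and its mutation causes a combined oxidative phosphorylation deficiency. The gene (ENSG00000182180.9, chr10:75006510-75012451) had an FPKM of 37 (35.4 to 38.5) in live and 18.5 (17.6 to 19.4) in processed cells, a ratio of -0.96, and just past 2-fold apart when nothing is added. The antisense gene DNAJC9-AS1, which lies across the locus, had an FPKM of 0.127 in live and 7.04 in processed cells, the opposite direction. DNAJC9, which also overlaps, stood at 17.4 and 17.7. The values of sense and antisense genes here cannot be told apart in full, as the use of strand is not stated.

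**Figure D3:**
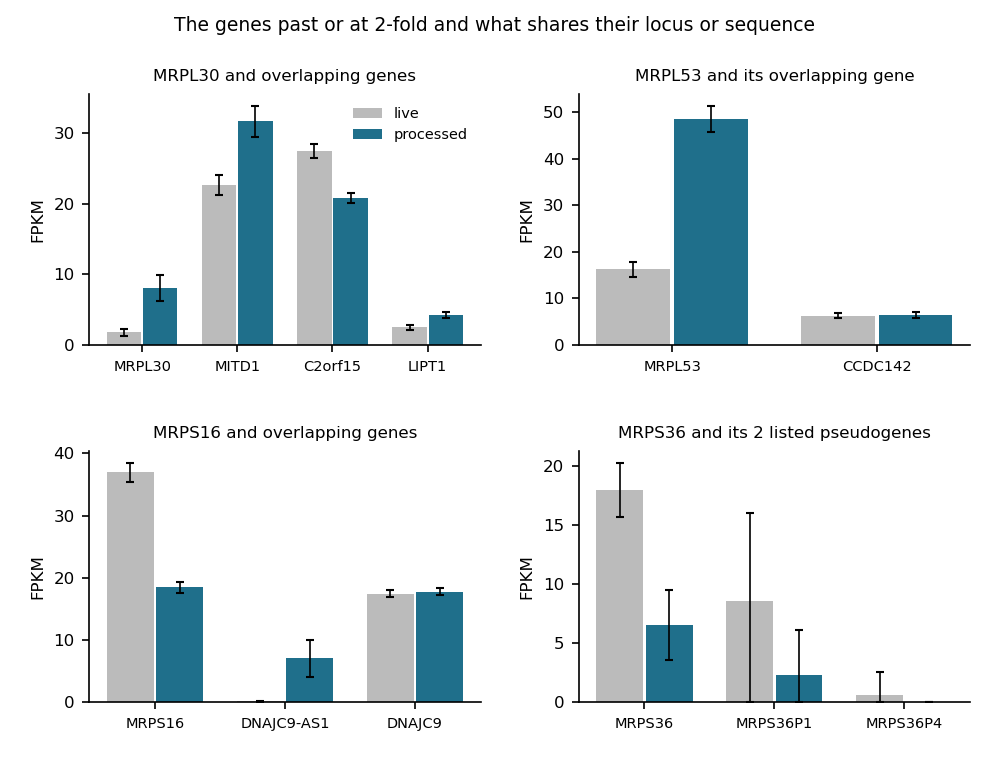
FPKM of the 4 MRP genes past or at 2-fold, beside the genes that overlap them or, for MRPS36, its pseudogenes with values. Grey bars are live and blue bars processed cells, and error bars are the listed bounds. The bars of CCDC142 and DNAJC9 are level between the libraries at 6.30 and 6.41 and at 17.4 and 17.7, whereas DNAJC9-AS1 goes from 0.127 to 7.04.

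A run of genes followed between 1.5-fold and 2-fold lower in processed cells. MRPL47, a tunnel exit protein, had an FPKM of 31.2 (29.7 to 32.8) in live and 16.5 (14.8 to 18.2) in processed cells, a ratio of -0.88. MRPL15, which resembles bacterial L15, had 33.8 (32.6 to 35.1) and 19.0 (18.1 to 19.9), a ratio of -0.80. MRPL21, which resembles bacterial L21, had 31.8 (30.05 to 33.7) and 18.7 (17.2 to 20.2), a ratio of -0.74. These 3 genes lay above the family's median in live cells and below it in processed cells, and their bounds were far apart. MRPL55 (29.4 in live and 18.3 in processed cells), MRPS33 (25.7 and 16.3) and MRPL44 (19.3 and 12.3), whose protein carries a fold like that of RNase III, had ratios of -0.66, -0.63 and -0.61. Among the most abundant genes, MRPL9 (54.0 and 38.4), MRPL52 and MRPS24 (47.5 and 36.96) were also lower with separate bounds.

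In total 10 of the 77 rows were lower by over 1.5-fold in processed cells, 4 were higher by over 1.5-fold, and the 63 others lay between. Among genes at mean FPKM 4 to 100, 80.7% lay within 1.5-fold, and the rest were not counted by direction. By separate bounds, which is another measure, 45.4% of those genes were lower and 26.3% higher. Past 2-fold, 2.45% of them were lower and 3.4% higher. Whether the lean to lower values at 1.5-fold is particular to the family was not tested. Partners across a shared start gave mixed values. MITD1, the partner of MRPL30, was higher with separate bounds, as given above. MRPL47 and NDUFB5, a subunit of respiratory complex I, have 155 bases between their starts. NDUFB5 had an FPKM of 36.5 (34.7 to 38.4) in live and 34.1 (32.5 to 35.7) in processed cells, with overlapping bounds. CYB5RL, across 136 bases from MRPL37, stood at 2.51 and 2.56, while MRPL37 itself went from 36.3 to 27.0. The only pair made of 2 members was MRPL46 and MRPS11, whose ratios were -0.07 and 0.28, and MRPS11 stood at 15.4 (14.3 to 16.6) in live and 18.9 (17.6 to 20.2) in processed cells. Over the 25 pairs, the ratios of both genes had the same sign in 14, and their rank correlation was 0.10, given as a description with the MRPL46 and MRPS11 pair counted once from each side.

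By subunit, the medians lay close together. The 48 MRPL rows had a median ratio of -0.06, with 12 higher and 21 lower by separate bounds, and the 29 MRPS genes had a median of -0.09, with 9 higher and 13 lower. These are 25% and 43.8% of MRPL rows and 31.0% and 44.8% of MRPS genes, close to the 28.1% and 43.7% of all expressed genes. The mean FPKM of an MRPL row came to 1.11 times that of an MRPS gene in live cells and 1.14 times in processed cells. Symbols do not match the structure throughout: MRPS30 and MRPS18A sit in the large subunit, and MRPS36 in neither. With genes placed by structure the medians were -0.07 for 49 large and -0.07 for 26 small subunit genes, and the ratio of mean levels was 1.07 (live) and 1.08 (processed).

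The misnamed genes differed among themselves. MRPS30 had an FPKM of 16.5 (15.8 to 17.1) in live and 10.95 (10.4 to 11.5) in processed cells, lower with separate bounds. The 3 relatives of bacterial S18 were close to level. MRPS18A stood at 17.6 in live and 17.8 in processed cells, MRPS18B at 20.8 and 22.5, and MRPS18C at 15.4 (14.2 to 16.6) and 15.5 (11.4 to 19.7), and bounds overlapped for all of them. These paralogs were thus within 1.5-fold of each other in either library, although they take different places in the ribosome.

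Proteins inherited from bacteria and those added in mitochondria gave like medians. The 46 genes whose protein has a bacterial homolog had a median ratio of -0.06, with 12 higher and 20 lower by separate bounds, and their summed FPKM was 0.934 times the live sum. The 29 genes for proteins first found in mitochondria had a median of -0.07, with 9 higher and 13 lower, and a sum 1.02 times that in live cells. The shares were 26.1% higher and 43.5% lower in the former and 31.0% and 44.8% in the latter, near the 26.3% and 45.4% of genes at mean FPKM 4 to 100. MRPL51 and MRPL53 stood highest among the latter in FPKM and in ratio.

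Within the large subunit, 3 functional sites could be followed. The stalk recruits translation factors, and its genes MRPL10, MRPL11 and MRPL12 stood at an FPKM of 23.7, 41.8 and 40.0 in live cells and 22.1, 32.3 and 37.8 in processed cells. Of them only MRPL11 (39.9 to 43.8 in live and 30.6 to 33.9 in processed cells) had separate bounds. The other ratios, -0.10 for MRPL10 and -0.08 for MRPL12, became 0.00 and 0.02 with median-ratio scaling. The 0.00 was fixed by the scaling, since the FPKM ratio of MRPL10 equals the median ratio of 0.932 used as divisor. Around the exit of the tunnel, where new chains meet the inner membrane, 3 of 6 genes were lower by separate bounds and 0 higher, with a median of -0.05, beside 45.4% lower and 26.3% higher among genes at mean FPKM 4 to 100. Those lower were MRPL47, MRPL22 (25.7 in live and 17.8 in processed cells) and MRPL45 (25.8 and 22.7), and the others, MRPL17, MRPL23 and MRPL24, had overlapping bounds. A pseudogene of MRPL45, MRPL45P2, was listed at 3.07 (2.55 to 3.59) in live and 1.13 (0.907 to 1.35) in processed cells. The value of MRPL45 is uncertain to that extent. In the central protuberance, which faces the small subunit, 1 of 6 genes was higher (MRPL48, 21.3 in live and 26.9 in processed cells), 1 was lower (MRPL40, 10.7 and 8.29) and the median was 0.12. These sites hold 3 to 6 genes each, and no difference between them was tested.

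Mutations in 13 listed MRP genes are known to cause a combined oxidative phosphorylation deficiency. The group had a median ratio of -0.08, with 4 higher (30.8%) and 5 lower (38.5%) by separate bounds, beside 28.1% and 43.7% of expressed genes. Its summed FPKM was 365 (live) and 366 (processed). Higher were MRPS28, MRPS25, MRPS34 (46.4 in live and 55.1 in processed cells) and MRPL3 (46.7 and 50.2), and lower were MRPS16, MRPL44, MRPS14 (7.97 and 5.60), MRPS2 (32.0 and 24.3) and MRPS23 (23.9 and 21.3). MRPL12, MRPL24, MRPS7 and MRPS22 overlapped. A pseudogene of MRPL3, MRPL3P1, was listed at 4.72 (0 to 9.53) in live and 3.05 (0 to 6.94) in processed cells, so the value of MRPL3 is uncertain to that extent.

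Sequence upstream of the start was compared next, because the family is known for NRF-1 and ETS sites. In the 250 bases before the annotated start, on either strand, the ETS letters CCGGAAG occurred in 24 of 74 MRP genes (32.4%), in 11.8% of 20175 protein-coding genes and in 17.6% of the 9816 at mean FPKM 4 to 100. The NRF-1 letters GCGCANGCG occurred in 12 MRP genes (16.2%), compared with 9.69% and 14.6%. The YY1 letters AAGATGGC occurred in 5 (6.76%), compared with 1.30% and 1.86%. The ETS and YY1 letters can overlap in the run AAG, and at least 1 motif was present in 35 MRP genes (47.3%), against 20.7% and 30.7%. The median GC content of these windows was 59.6% in MRP genes and 66.8% in the genes at mean FPKM 4 to 100. A match is a run of letters and not a shown binding site.

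The ratio was set beside these letters as a description. The 24 MRP genes with the ETS letters had a median ratio of 0.10, with 9 higher and 5 lower by separate bounds, and the 50 without had a median of -0.19, with 12 higher and 28 lower. Over genes at mean FPKM 4 to 100, 26.3% were higher and 45.4% lower. Those genes were not split by the letters, so whether the difference is particular to the family was not tested. Members stood on both sides, since MRPL30, MRPL53 and MRPL51 held the letters within 250 bases, as did MRPL47. The 12 genes with the NRF-1 letters had a median of -0.06, and so had the 62 without. The 5 genes with the YY1 letters had a median of -0.20, with 0 higher and 3 lower.

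Transcript length and GC content moved only weakly with the ratio in this family. Across 74 MRP genes, the rank correlation of the ratio with the length of the canonical transcript was -0.16. It was -0.19 across 10819 genes at mean FPKM 4 to 100. With the length of the longest transcript of each gene it was -0.21 in the family and -0.16 in those genes, so the order depends on the transcript taken. With the GC content of the longest transcript it was 0.09 in the family and 0.17 in those genes. The family was also cut by the length of the canonical transcript. The median ratio was 0.05 in the 25 shortest (496 to 999 nt) and 0.01 in the 25 in the middle (1009 to 1605 nt). It was -0.17 in the 24 longest (1648 to 15557 nt). The extremes were in all of these groups, with MRPL53 among the shortest, MRPS36 in the middle and MRPL30 and MRPS16 among the longest.

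Overlap with other genes also bears on the values. Another expressed gene, at FPKM 1 or above, overlapped 36 MRP rows, whose median ratio was -0.01, and the 41 others had a median of -0.10. For 5 members the overlapping gene was itself past 2-fold. Besides DNAJC9-AS1 at MRPS16, these were CTD-2369P2.4 at MRPL4 (1.34 in live cells and listed near 0 in processed cells), a Metazoa_SRP gene at MRPL20 (0 in live and 8.26 with bounds of 0 to 15.9 in processed cells), RBKS at MRPL33 (1.42 and 4.203) and RSPH9 at MRPS18A (0.873 and 4.35). MRPL4 itself stood at 24.0 in live and 25.4 in processed cells and MRPL33 at 46.9 and 49.9, both with overlapping bounds. The part of these neighbours in the MRP values was not tested.

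Genes that work with the ribosome were read from lists of their own. Mitoribosome proteins that carry other symbols numbered 7, with 1 higher, 6 lower and a median ratio of -0.31, where 28.1% of expressed genes were higher and 43.7% lower. Of these, PTCD3, which guides mRNA into the small subunit, had an FPKM of 42.3 (40.2 to 44.3) in live and 20.8 (19.0 to 22.6) in processed cells. GADD45GIP1, a large subunit protein, had 49.3 (47.4 to 51.2) and 32.4 (30.8 to 33.9). DAP3, a GTP-binding small subunit protein, had 42.4 (40.8 to 43.9) and 34.0 (32.2 to 35.9). The single higher gene was ICT1, a peptidyl-tRNA hydrolase built into the large subunit, at 16.1 (15.2 to 17.1) and 21.9 (20.2 to 23.6). The list is short, and its difference from the MRPL and MRPS genes was not tested.

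Factors that help the ribosome start, extend and stop translation, or that handle its mRNAs, numbered 16, with 4 higher (25%), 11 lower (68.8%) and a median of -0.26, beside the 28.1% and 43.7% of all expressed genes. MTIF2, which places the initiator tRNA, was past 2-fold, at 12.4 (11.5 to 13.4) in live and 5.23 (4.88 to 5.57) in processed cells. GFM1, the elongation factor that moves the ribosome along, was higher, at 9.72 (9.25 to 10.2) and 17.9 (16.8 to 19.1). SLIRP, an RNA-binding partner of LRPPRC, had the highest level, at 113 in live and 86.1 in processed cells. Assembly factors numbered 19, with 7 higher (36.8%), 6 lower (31.6%) and a median of 0.09. MTG1, a GTPase of large subunit assembly, stood at 49.2 and 51.0, MTERFD2, the partner of NSUN4, at 18.3 and 33.9, and MALSU1, which keeps the subunits apart until they are ready, at 25.1 and 15.2. Of 17 mitochondrial aminoacyl-tRNA synthetases, which charge tRNAs with amino acids, 16 were found by symbol, with 4 higher (25%), 5 lower (31.2%) and a median of -0.06. IARS2 was the highest of them in live cells at 26.5 and stood at 24.6 in processed cells, where its bounds were 0 to 180. YARS2 stood at 19.8 in live cells and was the highest in processed cells at 26.8, and WARS2 stood at 6.83 and 3.77.

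**Figure D4:**
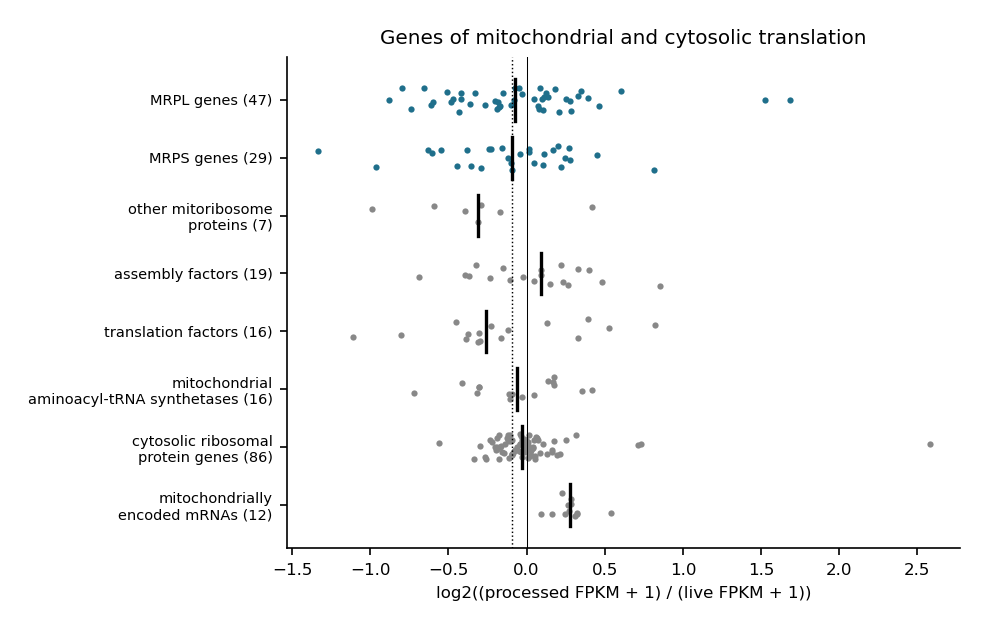
Log2 ratio of processed to live FPKM, each with 1 added, for MRP genes and related lists. Each point is a gene, short black bars are list medians, the dotted line is the median of all expressed genes at -0.09, and the number of genes stands beside each name (the second MRPL46 entry is left out). The cytosolic ribosomal protein genes are packed closest around 0, the MRP genes spread wider, and the 12 mitochondrially encoded mRNAs plotted, without MT-ATP8, lie to the right of 0.

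The cytosolic ribosome and the mitochondrial mRNAs were the groups most like this family in function. Of the 86 cytosolic ribosomal protein genes, 82 reached FPKM 1 in either library, and the shares below are of all 86. These 86 genes had a median FPKM of 628 in live and 596 in processed cells, far above the 24.3 and 22.7 of the MRP genes. Their median ratio was -0.03, with 17 higher (19.8%) and 38 lower (44.2%) by separate bounds, beside 28.1% and 43.7% of expressed genes, and 1 gene, RPL36A, was past 2-fold (8.55 in live and 56.0 in processed cells). The median size of the ratio, without its sign, was 0.09 in the cytosolic and 0.25 in the mitochondrial family, beside 0.28 across genes at mean FPKM 4 to 100. Most cytosolic genes lie far above that range, and no background at their level was taken, so the 0.09 is not shown to be particular to them. Their rows also include unexpressed genes such as RPL3L, at 0 in both libraries, whose ratio is 0. Of the mRNAs that the mitochondrial ribosome translates, 12 were followed and MT-ATP8 was not analysed here. All of these 12 were higher by separate bounds, with a median of 0.28, whereas the genes for its own proteins were found on both sides.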

How the data were processed

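Poly-A RNA of 1 live and 1 processed sample was read as paired ends of 80 nt. The authors aligned reads to GRCh37/hg19 with STAR 2.2.0c guided by GENCODE 14 and deposited FPKM per gene, with lower and upper bounds and a status column, from Cufflinks 2.0.2 (versions from the methods and the submitters' processing notes). Read counts were not in the files used here, and the level of the bounds and the use of strand are not stated.

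Values were joined by Ensembl identifier with pandas 2.3.3, numpy 2.4.6, scipy 1.17.1 and Python 3.11.15, since 5489 of 55797 genes stood in the same row of both files. Log2 ratios used a pseudocount of 1, which understates the change of low genes. Counts were taken among genes at FPKM 1 or above in either sample, except where they are given over MRP or MRPL rows or over the 86 cytosolic genes. Coordinates of genes are those of the files, counted from 1, and start sites, lengths and exons came from GENCODE 44 mapped to GRCh37, which held 75 of the 77 members. The fragment step was read from single-transcript genes over 300 nt, as FPKM times the transcript length less 170 nt, and came to 0.0100 (live) and 0.0107 (processed). The range of mean FPKM from 4 to 100 was set after the members' values were seen.

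Named members were those past 2-fold or below FPKM 1, the 8 highest and 8 lowest in live cells, the 8 largest ratios each way, MRPS18A, MRPS18B, MRPS18C, MRPS30, MRPS36, the stalk genes and members overlapping a gene past 2-fold, and in each related list the highest gene and the largest ratio each way. Other members are named with the short list they belong to or with a head-to-head partner, and were chosen after their values were seen. The members and lists were chosen with earlier results of these data known. With 1 sample per condition no test was run. Alternatives changed the scaling, the pseudocount, the filter on low values, overlapping members, the denominator and the subunit assignment. The calculation was run on simulated data with fragment noise, in which 200 genes at a live FPKM of 10 or more were changed 4-fold. Low levels, overlapping genes and shared reads were not simulated, so this run checks the arithmetic only. The stretch upstream of 1 member is not reported here.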

Additional observations from a re-analysis of the deposited data

Results flagged for a closer look

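A pair of rows outside the symbol rule stood at FPKM 1 or above in processed cells with bounds above those of live cells, and they were drawn out because no comparison of the MRP genes used them. The antisense gene MRPL23-AS1, which overlaps the end of MRPL23, had an FPKM of 1.03 (0.883 to 1.18) in live and 1.70 (1.49 to 1.92) in processed cells, while MRPL23 stood at 41.3 and 44.5 with overlapping bounds. The pseudogene MRPS29P2, named after the symbol MRPS29 of DAP3, was listed at 0 in live cells and at 2.2 (1.67 to 2.73) in processed cells, while DAP3 went from 42.4 to 34.0. Going the other way, the pseudogene MRPL45P2 was lower with separate bounds, at 3.07 (2.55 to 3.59) in live and 1.13 (0.907 to 1.35) in processed cells. Each value rests on 1 library per condition, and reads shared with DAP3, MRPL23 or MRPL45 could not be told apart here.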

How the results depend on the processing

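No paired analysis was possible because each condition has 1 sample and no replicate could be left out. When members that overlap another expressed gene were left out, 41 of 77 rows remained, and with fewer rows the count past 2-fold was 1 instead of 3, separate bounds were found in 11 higher and 20 lower genes instead of 21 and 34, and the share of processed FPKM was 0.198% instead of 0.403%. With genes whose symbols start with MT- left out of the denominator, that share was 0.438%. Dividing processed values by the median ratio of 0.932 shifted the median of all expressed genes by 0.09 on the log2 scale. It took the family's median from -0.07 to 0.02, that of MRPL rows from -0.06 to 0.02 and that of MRPS genes from -0.09 to 0.00, all smaller than the spread among members. Under that scaling 30 genes were higher and 26 lower by separate bounds. Of 37 named entries 35 moved by less than the distance from the ratio to the ends that their bounds allow, and MRPL51 went from 0.35 to 0.45 and MRPS6 from -0.24 to -0.14. Without a pseudocount 4 genes were past 2-fold, MRPS16 being the one added. MRPL30, MRPL53 and MRPS36 were past 2-fold with pseudocounts of 1 and 0.1 and under either scaling. With 1 library per condition, the spread between samples is unknown and sets the limit on every difference here.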
